A study of Mus musculus with 3 samples.

Results

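SOX2 peaks at the loci of gastric mucins, trefoil factors, gastrokines and gastrin were described from chromatin immunoprecipitation with sequencing (ChIP-seq) of mouse antral glands. The members were all listed peaks that overlapped 4 windows of the mouse build mm9 by at least 1 bp. Muc6, Muc2 and Muc5ac shared the window chr7:148770000-149070000. Tff1, Tff2 and Tff3 shared chr17:31200000-31360000. Gkn1 and Gkn2 shared chr6:87240000-87400000, and Gast had chr11:100100000-100300000. These windows, which cover 820 kb for 9 genes, held 9 of the 7213 peaks in the wild-type list and 0 of the 887 peaks in the knockout list.

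The study was designed to find targets of SOX2 in the stomach. Wild-type mice carried floxed Sox2 alleles and no Cre (Rosa26WT; Sox2 fl/fl), and knockout mice carried the same floxed alleles with a tamoxifen-inducible Cre (Rosa26CreER; Sox2 fl/fl). The Rosa26 locus is broadly active, so the Cre is not limited to the gastric epithelium. Mice of both genotypes had a mixed C57BL/6 and 129 background, received tamoxifen at 8 weeks of age and gave stomachs 2 weeks later, per the labels' protocols. The sample labels themselves give an age of 8 weeks, so the age at sampling is not settled. Isolated antral glands were fixed in 1% formaldehyde for 10 min, and a goat antibody against SOX2 was used at 4 µg. There was 1 ChIP library per genotype, so no genotype difference could be tested and every value is without replicate error. The wild-type input was not analysed here, the number of mice behind a library is not given in the sources used here, and read depth is unknown. The glands hold several cell types, and a peak in such bulk chromatin does not show which of them was bound.

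The 9 genes encode secreted products by which gastric cell types and, for Muc2 and Tff3, intestinal goblet cells are recognised. Muc5ac is the gel-forming mucin of surface mucous cells, Muc6 is that of deeper gland mucous cells, and Muc2 is that of intestinal goblet cells. Trefoil factors are small secreted peptides that accompany mucins: Tff1 is typical of surface mucous cells, Tff2 of gland mucous cells and Tff3 of goblet cells. Gkn1 and Gkn2 encode gastrokines, BRICHOS-domain proteins secreted by surface mucous cells, and Gast encodes gastrin, the acid-stimulating hormone of antral G cells. SOX2 is a high-mobility-group transcription factor of foregut epithelia that binds the minor groove of DNA at short A- and T-rich sites.

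An annotation of mm9 was not used here, so peaks are given by window and not by gene. In RefSeq's table for GRCm38.p6, used for names and order only, each of the 9 genes lies on the chromosome of its window. The genes of a shared window were consecutive protein-coding genes there. Muc5ac was followed by Muc5b, Gkn2 by Gkn3, and Tff1 by Tmprss3, while Gast lay between Eif1 and Hap1. A window peak may therefore lie nearer to a neighbour than to the gene for which the window is named.

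RefSeq promoter sequences were at hand for 5 of the 9 genes, namely Gkn1, Gkn2, Muc6, Muc2 and Gast. The entries for Muc5ac, Tff1, Tff2 and Tff3 were not among them. The 250 bases before each start were searched on both strands for the SOX core letters ACAAT or ACAAAG, read on the other strand as ATTGT or CTTTGT. None of the 5 promoters held them, and 38.8% of the 32851 promoters in the table did. No match says only that these letters are not in this window. The gastrokine promoters are shown because the gastrokine window held the most peaks. Their coordinates are on GRCm38.p6 and cannot be set against the mm9 peak positions, so whether a peak covers them is not known here. Capitals mark the core GATAA, or TTATC on the other strand, which GATA factors recognise and which was chosen after the sequences had been seen.
Gkn1, minus strand, chr6:87350916-87351165: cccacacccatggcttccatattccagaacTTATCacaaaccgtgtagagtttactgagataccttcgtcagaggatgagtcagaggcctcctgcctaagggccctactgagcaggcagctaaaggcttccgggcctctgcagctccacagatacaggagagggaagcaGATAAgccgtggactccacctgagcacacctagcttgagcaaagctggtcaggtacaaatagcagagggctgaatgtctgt
Gkn2, plus strand, chr6:87373115-87373364: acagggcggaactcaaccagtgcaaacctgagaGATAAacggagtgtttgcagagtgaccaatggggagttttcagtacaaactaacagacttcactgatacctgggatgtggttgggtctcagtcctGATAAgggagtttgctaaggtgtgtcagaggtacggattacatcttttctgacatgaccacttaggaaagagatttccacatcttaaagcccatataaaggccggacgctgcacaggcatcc
Each gastrokine promoter held 2 such cores. They were also in the promoters of Muc6 and Muc2 but not in that of Gast, so 4 of 5 held the letters, beside 22.6% of all promoters in the table. The core was picked from these same sequences, so setting 4 of 5 beside 22.6% is no test. Binding by GATA factors was not measured.

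The gastrokine window on chromosome 6 held 4 wild-type peaks, the most of the 4 windows. They formed 2 pairs that spanned 41.0 kb in all. In the first pair, a peak from 87301123 to 87301424 scored 89.5 and its neighbour from 87304431 to 87304914 scored 164.67, with a gap of 3.01 kb between them. In the second pair, a peak from 87338847 to 87339223 scored 86.07 and its neighbour from 87341426 to 87342118 scored 160.26, with a gap of 2.20 kb. The score is the authors' own value for a peak and ranks peaks within a list, with no named scale. Each pair thus joined a peak near the middle of the list to a stronger one, and 33.9 kb without a listed peak lay between the pairs. The stronger peaks held ranks 1268 and 1328 of 7213, and the weaker ones ranks 3254 and 3446. The flanks of the window were empty: the next wild-type peaks were 166 kb beyond its left edge (score 161.3) and 132 kb beyond its right edge (score 54.48).

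Windows of equal size, laid end to end over the autosomes and chromosome X, give the background for this count. Of 15904 such tiles of 160 kb, 25.7% held at least 1 wild-type peak and 1.94% held at least 4. The gastrokine window lay in that upper 1.94%. A summed score of at least 500.5, that of the gastrokine window, was reached by 2.02% of the tiles. Its highest single score was less unusual, since 6.85% of all tiles and 26.6% of tiles with a wild-type peak reached 164.67. The windows were chosen for their genes, with earlier results of these data known. The tiles cover regions of every kind, including ones with few genes. These shares therefore describe the windows and are no test of them. The effect of gene density was not tested.

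**Figure D1:**
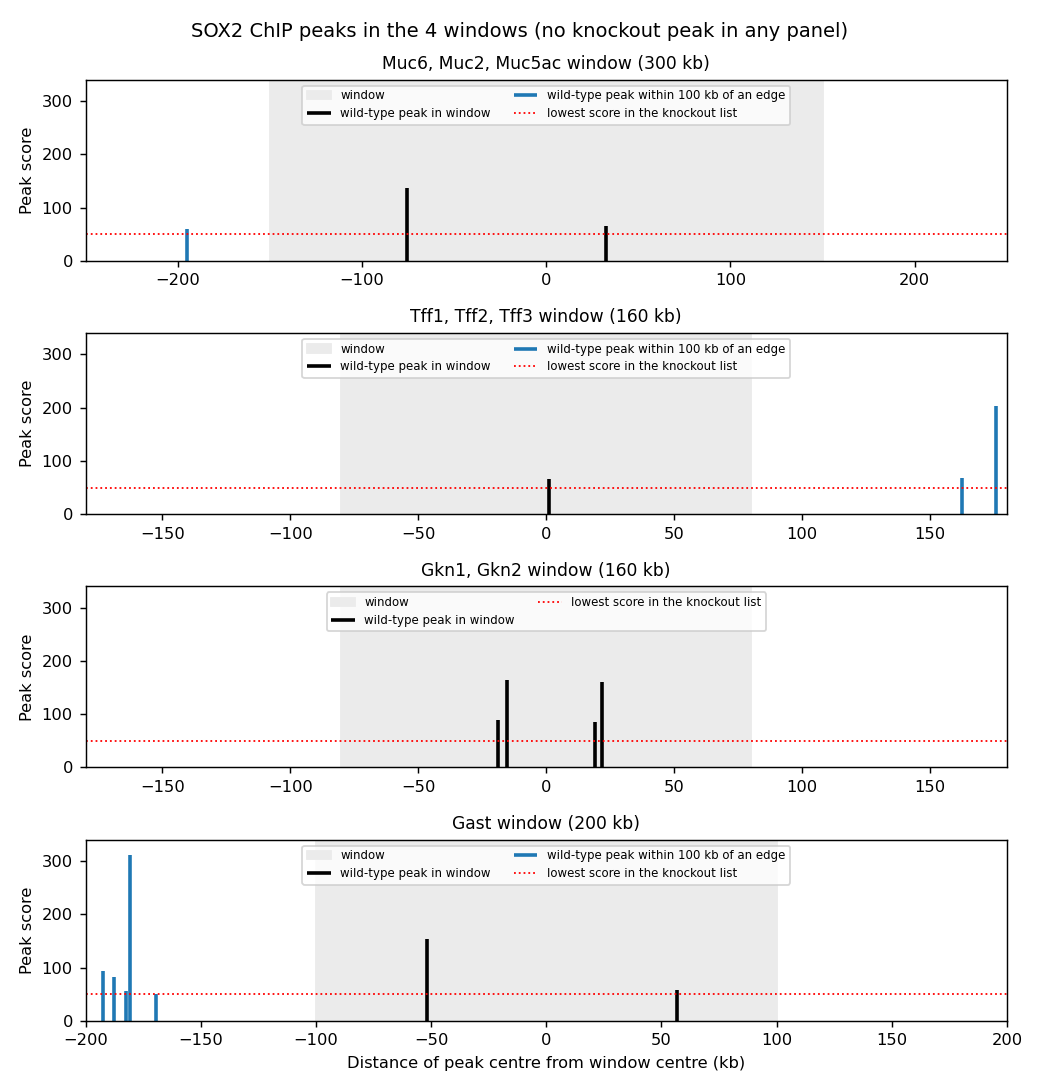
Wild-type SOX2 peaks are drawn as vertical lines at the distance of their centre from the window centre (kb), with the score as height, for the 4 windows (grey) and 100 kb on each side. The Gkn1 and Gkn2 window shows 2 pairs of peaks and empty flanks, the Gast window has 5 peaks beyond its left edge, and no panel holds a knockout peak, whose lowest listed score is the dotted line.

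The mucin window on chromosome 7 held 2 wild-type peaks 107 kb apart. The first, from 148844282 to 148844762, was 481 bp wide and scored 136.97, rank 1712. The second, from 148952082 to 148952430, was 349 bp wide and scored 65.6, rank 4932. The window of Muc6, Muc2 and Muc5ac thus held 1 peak in the upper 23.7% of the list and 1 in the lower part. Of 8479 tiles of 300 kb, 38.3% held at least 1 wild-type peak and 21.3% held at least 2, so a count of 2 was common at this size. The highest score of the window, 136.97, was reached in 15.4% of these tiles and in 40.2% of those with a wild-type peak. A further wild-type peak, with a score of 59.93, lay 45.1 kb beyond the left edge, and the next one to the right was 119 kb away with a score of 56.94.

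The trefoil window on chromosome 17 held 1 wild-type peak, from 31281125 to 31281373, which was 249 bp wide and scored 65.79. Its rank was 4909, and 68.1% of wild-type peaks scored at least as high. Tff1, Tff2 and Tff3 therefore shared a window with a single peak that scored below the list's median, and 25.7% of the 160 kb tiles held at least as many. A score as high as 65.79 was reached in 20.0% of the tiles and in 77.6% of those with a wild-type peak. No other wild-type peak lay nearer than 161 kb to it. The closest were beyond the right edge, with scores of 68.61 from 31442256 to 31442528 and 203.93 from 31455703 to 31456188. To the left, the nearest lay 450 kb from the edge and scored 80.47.

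The gastrin window on chromosome 11 held 2 wild-type peaks, 108 kb apart. The peak from 100148150 to 100148731 was 582 bp wide and scored 153.9, rank 1429. The peak from 100256766 to 100257017 was 252 bp wide and scored 58.65, rank 5693, the lowest score of the 9. At least 1 peak was present in 29.9% of 12722 tiles of 200 kb and at least 2 in 14.1%. A score of 153.9 was reached in 9.39% of these tiles and in 31.4% of those with a wild-type peak. Within 100 kb beyond the left edge, the nearest at 69.4 kb, lay 5 more wild-type peaks with scores of 93.37, 81.82, 55.65, 312.13 and 50.52. That group held the strongest peak within 100 kb of any of the 4 windows, from 100019013 to 100019759. In the order of genes on chromosome 11, the keratin genes Krt17 and Krt42 come before Eif1 and Gast. That order gives no mm9 positions, so whether Krt17 and Krt42 lie inside the window or beyond its left edge is not known here. Whether these 5 peaks belong to a keratin gene was not tested. Widening the window by 100 kb on each side, which takes them in, raised the count from 2 to 7. To the right, the next wild-type peak lay 136 kb beyond the edge and scored 234.95.

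**Figure D2:**
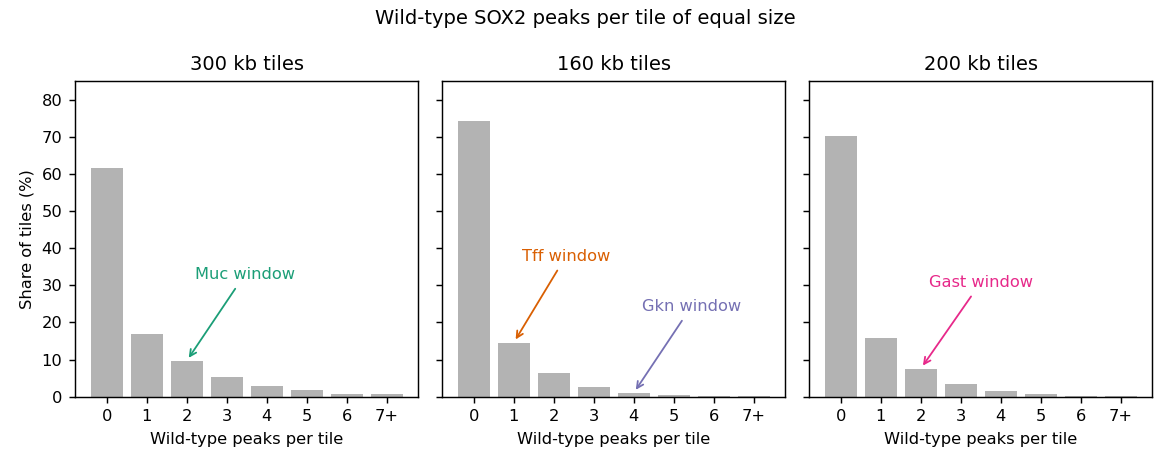
Bars give the share of equal-sized tiles (%) by the number of wild-type peaks per tile, for 300, 160 and 200 kb, with arrows at the count of each window. The Gkn1 and Gkn2 window sits in the thin tail at 4 peaks, while the other windows sit at 1 or 2.

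Each of the 4 windows held a wild-type peak, which tiles of the same sizes did in 25.7% to 38.3% of cases. All 4 held wild-type but no knockout peaks, which was the state of 31.0% of 300 kb tiles, 25.1% of 200 kb tiles and 21.9% of 160 kb tiles. Over the 820 kb there were 11 wild-type peaks per Mb (exact Poisson 95% interval 5.02 to 20.8), beside 2.82 per Mb over the spans of the autosomes and chromosome X. The density was 25 per Mb (6.81 to 64.0) in the gastrokine window, 10.0 (1.21 to 36.1) in the gastrin window, 6.67 (0.807 to 24.1) in the mucin window and 6.25 (0.158 to 34.8) in the trefoil window. The intervals overlap, so an order of the windows by density is not shown. They cover counting error only and treat peaks as independent, although 4 of the 9 peaks formed 2 close pairs. The intervals are therefore no test against the density over the chromosome spans.

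The 9 peaks were spread from the second to the eighth decile of the wild-type list by score. Their scores ran from 58.65 to 164.67 with a median of 89.5, beside 82.62 for the whole list. Scores of 100 or more belonged to 4 of the 9, beside 38.8% of all wild-type peaks, so the share was near that of the list. The 4 were the stronger peak of each gastrokine pair and the first peaks of the mucin and gastrin windows. None of the 9 was among the 722 highest-scoring peaks, which start at a score of 221.05.

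**Figure D3:**
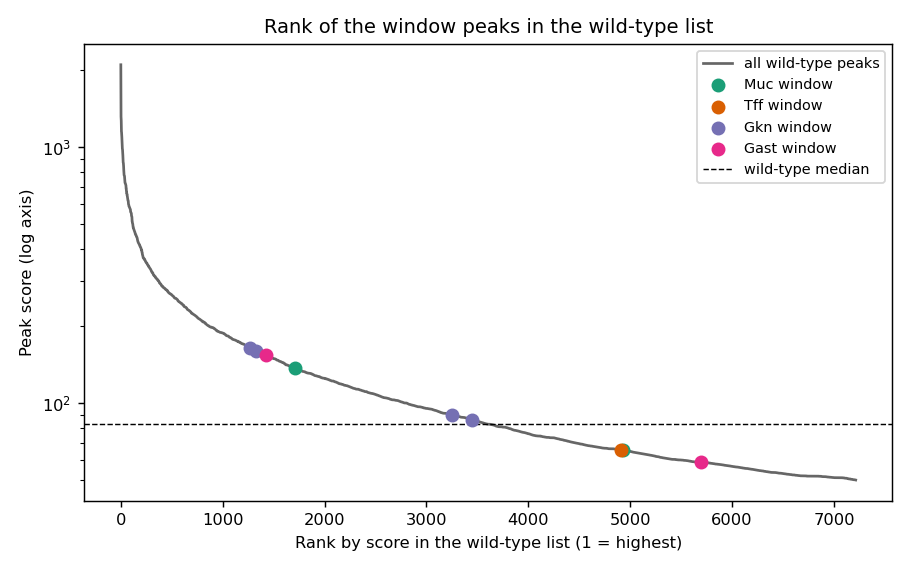
The score of each wild-type peak (log axis) is plotted against its rank, with the 9 window peaks as coloured points and the list median of 82.62 as a dashed line. Of the 9 points, 6 lie above the line, and the Tff point nearly hides the lower Muc point because their scores are 65.79 and 65.6.

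Of the 9 peaks, 7 were wider than the median of wild-type peaks with a similar score. Across all wild-type peaks, which are not replicates, width and score had a Spearman rho of 0.81. The last gastrokine peak spanned 693 bp, while wild-type peaks with a score within 10% of it had a median width of 417 bp. Of those 464 peaks, 5 were at least as wide (1.08%). The first gastrin peak, at 582 bp, was matched or exceeded in width by 13 of 467 peaks of similar score (2.78%), and the first mucin peak, at 481 bp, by 68 of 567 (12%). The weaker second mucin peak, at 349 bp, was matched by 110 of 1299 (8.47%). The strongest of the 9, the second gastrokine peak, was less unusual at 484 bp (20.0%), as was the third at 377 bp (16.4%), and the second gastrin peak, at 252 bp, was near its median of 238 bp (40.6%). Below the median for their score were the first gastrokine peak, at 302 bp beside 327 bp, and the trefoil peak, at 249 bp beside 263 bp. Width was set beside score after the lists had been seen.

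**Figure D4:**
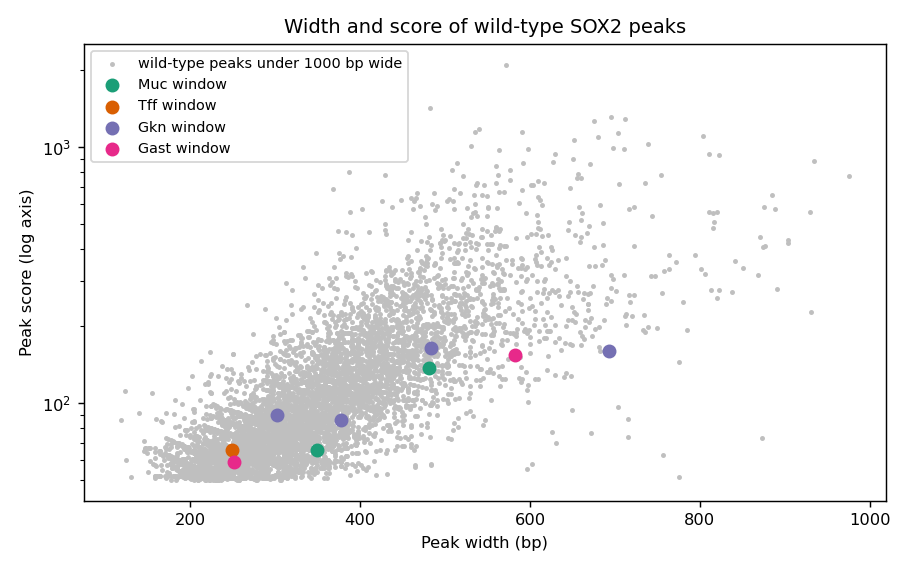
Each grey point is a wild-type peak under 1000 bp wide, placed by width (bp) and score (log axis), and coloured points are the 9 window peaks. The widest coloured points, at 693 and 582 bp, lie to the right of most grey points of the same score.

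Closely spaced peaks were found only in the gastrokine window among the 4. All 4 of its peaks had another wild-type peak less than 5 kb away, beside 19.8% of peaks in the whole list, and none of the other 5 did. The list held 653 runs of peaks spaced in this way, and 565 of them were pairs. Another run within 50 kb was present for 87 of the 653 (13.3%), and the 2 gastrokine pairs are counted among them. The runs and the 50 kb limit were picked with the peak positions already in view. The gap of 33.9 kb between the gastrokine pairs is below that limit, so they were bound to be counted. The 13.3% therefore describes the list and is no test of the gastrokine window. Setting all 4 gastrokine peaks beside 19.8% is no test either. The peaks of a pair count each other, and this window held the most peaks of the 4.

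The knockout list held no peak in any of the 4 windows or within 100 kb of them. A count of 0 allows up to 3 knockout peaks, or 3.66 per Mb over the 820 kb, and the list as a whole had 0.344 per Mb. At that density 0.282 peaks would fall in such a length, so a length of this size would more often be empty than not. This figure does not allow for the wild-type peaks in the windows, beside which knockout peaks were more common. Knockout peaks were present in 8.7% of 300 kb tiles, 6.0% of 200 kb tiles and 4.84% of 160 kb tiles. The nearest knockout peaks lay 524 kb from the gastrokine window with a score of 63.77 and 827 kb from the trefoil window with a score of 53.0. For the gastrin and mucin windows they were 926 kb and 1174 kb away, with scores of 53.66 and 51.35. On the other side of each window the distance was 4286 kb for the gastrokine (score 180.55), 3253 kb for the trefoil (56.08), 1008 kb for the gastrin (55.69) and 1462 kb for the mucin window (230.93).

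In tiles with at least as many wild-type peaks as a window, a knockout peak was more common than over all tiles but still in the minority. Among 160 kb tiles with at least 4 wild-type peaks, as in the gastrokine window, 114 of 308 (37.0%) also held a knockout peak. The share was 25.5% for 300 kb tiles with at least 2, as in the mucin window, 23.0% for 200 kb tiles with at least 2, as in the gastrin window, and 14.9% for 160 kb tiles with at least 1, as in the trefoil window. At exactly the count of the window the shares were lower, with 30.8% for the gastrokine, 17.4% for the mucin, 16.6% for the gastrin and 9.6% for the trefoil window. A tile without a knockout peak was thus the more frequent outcome at the count of each window. This did not hold at the highest counts: with 7 or more wild-type peaks, 58.1% of 160 kb tiles held a knockout peak.

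At the level of single peaks, 0 of the 9 met a peak of the knockout list. A count of 0 among 9 leaves room for a share as high as 33.3% (3 counts). Over the whole wild-type list the share was 8.15%, and among the 4431 wild-type peaks with scores between 58.65 and 164.67 it was 3.59% (exact Clopper-Pearson 95% interval 3.06 to 4.18). The 9 peaks are too few to be set apart from either share. The share with a knockout peak was largest at the highest scores, at 45% in the first decile of the list, which holds none of the 9. In the second decile, which holds both stronger gastrokine peaks and the first gastrin peak, it was 14.6% (12.1 to 17.4). It was 7.91% in the third decile, where the first mucin peak lies, and between 1.53% and 2.64% in the deciles of the other 5.

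**Figure D5:**
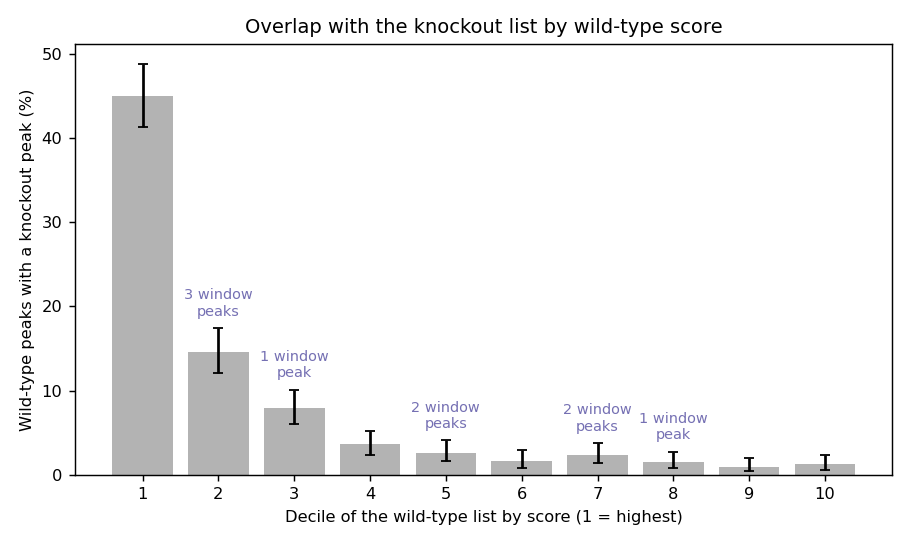
Bars give the share of wild-type peaks that overlap a knockout peak (%), by decile of the wild-type list from highest to lowest score, with exact 95% intervals as error bars. Numbers above the bars count the window peaks in that decile, and the first bar, at 45%, holds none of them.

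The lowest score in the knockout list was 50.02, and weaker signal would not be listed. The second gastrin peak (58.65), the trefoil peak (65.79) and the second mucin peak (65.6) lay close to that limit already in the wild type. At these 3 sites a missing knockout peak therefore says little about the signal. The stronger peaks of the gastrokine, gastrin and mucin windows, at 136.97 to 164.67, lay further above it. With unknown depth, loss of SOX2 and a shallower knockout library cannot be told apart at any of the 9. The nearest knockout peak was 585 to 1399 kb from a window peak, with a median of 908 kb. The median was 661 kb for the 6624 wild-type peaks without knockout overlap on chromosomes that had knockout peaks. Their quartiles were 197 and 1668 kb, so the distances of all 9 window peaks lay between these quartiles.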

How the data were processed

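SOX2 ChIP-seq peak lists of 1 wild-type and 1 knockout library were used. Alignment with Bowtie2 and peak calling with MACS used mm9, per the submitters' processing notes, while versions, settings and the control library were not stated there. Each list as deposited gives every peak's position and a score from the authors' peak caller, on a scale that no source names, with 1 list called per library. Scores were ranked within a list and never tested between lists.

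The windows, and the genes they are named for, were chosen with earlier results of these data known. Overlaps of at least 1 bp were counted with bedtools 2.31.1 and Python 3.11.15 (NumPy 2.4.6, SciPy 1.17.1, matplotlib 3.10.9), and positions are 1-based. Every peak in a window was named, with the nearest peaks beyond each edge. Tiles of each window's size ran between the outermost listed peaks of each of the 19 autosomes and chromosome X, since chromosome lengths were not used here, and took the place of random windows. Counting was tested on simulated data. Intervals are exact (95%), and a count of 0 is given with a limit of 3 counts. Both cover counting error only. Promoter sequences came from RefSeq (GRCm38.p6). No genome of mm9 was used here, so peak sequences and distances to genes were not computed. Alternatives were score limits, window edges, tile placement, overlap rules and rank lists.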

Additional observations from a re-analysis of the deposited data

How the results depend on the processing

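The 19 values were recomputed under 85 alternatives. In 54 a share or density stayed inside its counting interval or a count changed by at most 1.5 times, and in 31 it moved further. The knockout count was 0 in each window under each score, edge and window-size setting run, and no member gained a knockout peak under the overlap settings run. With a score of at least 100, the wild-type counts were 2 in the gastrokine window, 1 in the mucin and gastrin windows and 0 in the trefoil window. With the upper 50% of pooled scores, they were 1 in the mucin and gastrin windows and 0 in the trefoil window. Widening by 100 kb on each side gave 3 in the trefoil and 7 in the gastrin window. The share of tiles with at least as many peaks moved to 22.4% (mucin), 31.2% (trefoil) and 21.7% (gastrin) on the same chromosome alone. Among tiles with a wild-type peak it was 55.6% (mucin), 100% (trefoil, by construction), 7.53% (gastrokine) and 47.1% (gastrin), because empty tiles were left out. At scores of at least 100 it was 22.4% (mucin), 3.14% (gastrokine) and 16.2% (gastrin). No such share exists for the trefoil window, which had no peak left. The share of peaks scoring at least as high as the window's highest was 23.7% (mucin), 68.1% (trefoil), 17.6% (gastrokine) and 19.8% (gastrin). On the same chromosome it became 25.2% (mucin) and 22.6% (gastrokine). Among wild-type peaks without a knockout peak it became 19%, 65.7%, 12.9% and 15.1%, in the order mucin, trefoil, gastrokine, gastrin. For the median peak it was 38.0% (mucin), 27.7% (gastrokine) and 35.3% (gastrin). The share of promoters with a SOX core was 42.9% over all 300 bases, 27.7% for ACAAT and 16.5% for ACAAAG. The promoter settings and leaving out a window were chosen after the data were seen. Leaving out the gastrokine window lowered the pooled density from 11 to 7.58 peaks per Mb, and leaving out each of the others gave 11.3 to 13.5. No paired analysis was possible because there is 1 library per genotype. Leaving out a replicate was impossible for the same reason. The depth, which is unknown, limits what the genotypes' counts can show.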
